A study of Mus musculus with 6 samples.

Results

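The genes described here are 36 interferon-stimulated and RNA sensor genes of the mouse, chosen by name as a check on whether transfected small interfering RNA (siRNA) was sensed by the cells. A gene was measured by its brightest probe set among those annotated with a single gene symbol, which gave values for 32 of the 36, out of 22180 genes measured in all. Oas1a, Gbp2 and Ifi203 lie on probe sets shared by several symbols and Ifi44 has no named probe set here, so these 4 have no value. Of the 32, 31 had 1 such probe set and Ifi35 had more than 1.

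Expression was profiled on 6 Affymetrix arrays of C2C12, a mouse myoblast line that can fuse into myotubes. In 3 arrays the cells had been transfected with an siRNA pool against Htt, the mouse huntingtin gene. In the other 3 they had received scramble siRNA as the negative control. The sample titles call the first group a knockout, while the protocol and the design text describe siRNA knockdown, and it is called Htt siRNA here. Both groups carried transfected siRNA and no untransfected cells were analysed here, so a response common to both transfections cannot be seen in the comparison. The sources used here do not state the time from transfection to harvest or the culture stage. Nothing in the labels says whether the replicates were separate cultures. The p-values set each group difference against the scatter among these arrays, and that scatter may be technical.

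Cells recognise double-stranded RNA in the cytoplasm through the helicases RIG-I and MDA5 and in endosomes through the receptor TLR3. The sensors signal through MAVS or TRIF to the factors IRF3 and IRF7, which switch on interferon beta. Secreted interferon then acts through its receptor on a complex containing STAT2 and IRF9 that binds the interferon-stimulated response element in the promoters of antiviral genes. Long double-stranded RNA is the classic trigger, and some siRNA sequences and preparations are known to set off the same pathway in cultured cells.

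The genes were chosen as interferon-stimulated and RNA sensor genes, so how often they hold the response element is not independent of that choice. The promoters of the genes on which the results turn are shown first, and they describe the genes rather than the arrays. They are the 200 bases before the RefSeq transcription start of Ifit1 (chr19:34640689-34640888, plus strand), Isg15 (chr4:156200819-156201018, minus strand), Oasl2 (chr5:114896734-114896933, plus strand), Irf9 (chr14:55603785-55603984, plus strand, the first of 2 listed starts) and Xaf1 (chr11:72301429-72301628, plus strand), in the build GRCm38.p6 and read 5′ to 3′ along the gene. Capitals mark each match to the core of the response element, spelled GAAA, any 2 bases, GAAA, on either strand.
Ifit1: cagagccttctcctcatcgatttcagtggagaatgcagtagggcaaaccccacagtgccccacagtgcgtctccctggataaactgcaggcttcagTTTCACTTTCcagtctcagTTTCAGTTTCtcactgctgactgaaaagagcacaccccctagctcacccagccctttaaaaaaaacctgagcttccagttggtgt
Isg15: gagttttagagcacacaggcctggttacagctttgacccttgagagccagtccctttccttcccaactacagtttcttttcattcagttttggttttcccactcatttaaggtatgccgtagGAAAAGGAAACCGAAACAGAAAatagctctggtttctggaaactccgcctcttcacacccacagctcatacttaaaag
Oasl2: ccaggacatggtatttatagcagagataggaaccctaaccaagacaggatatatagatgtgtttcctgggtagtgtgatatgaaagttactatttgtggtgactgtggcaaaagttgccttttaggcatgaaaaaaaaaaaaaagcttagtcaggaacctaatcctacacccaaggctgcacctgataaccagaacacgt
Irf9: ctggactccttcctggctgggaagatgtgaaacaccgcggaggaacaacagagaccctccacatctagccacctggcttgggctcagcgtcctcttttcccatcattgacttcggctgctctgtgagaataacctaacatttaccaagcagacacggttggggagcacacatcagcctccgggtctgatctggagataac
Xaf1: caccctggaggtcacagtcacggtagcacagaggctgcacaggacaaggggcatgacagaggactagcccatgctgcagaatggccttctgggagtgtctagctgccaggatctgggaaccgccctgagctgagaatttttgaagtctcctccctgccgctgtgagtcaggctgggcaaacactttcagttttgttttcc

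In Ifit1 the matches lie at -104 to -95 and at -85 to -76 relative to the start, both on the opposite strand. In Isg15 there are 3 overlapping matches between -78 and -57. The stretches of Oasl2, Irf9 and Xaf1 hold no match, which says only that these letters are not in the window. Of the 36 genes, 29 have a promoter in the RefSeq table, and 14 of those (48.3%) hold the core in the window from 250 bases before to 50 after a listed start, against 3.99% of 27025 genes. Besides Ifit1 and Isg15 these are Bst2, Ddx58, Eif2ak2, Gbp2, Gbp3, Ifi203, Ifih1, Ifit3, Oas1a, Oas3, Rsad2 and Stat2, and in Ifih1 the match lies 33 to 42 bases after the start. The gamma-activated site, spelled TTC, any 3 bases, GAA, which reads the same on both strands, was present in 8 of the 29 (27.6%), against 9.55% of all genes. These genes are Adar, Bst2, Eif2ak2, Ifi35, Ifit2, Irf1, Oas1a and Psmb8. In Bst2 the site at -136 to -128 overlaps the response element core at -130 to -121.

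Htt itself checked the labels. The 3 Htt siRNA arrays read 4.49, 4.47 and 4.65 (log2) and the 3 controls 5.59, 5.60 and 5.72, with no overlap. Its fold change on the log2 scale was -1.10 ± 0.09 (SE), with a limma adjusted p of 0.0559 against a threshold of 0.05. Myod1, Myf5, Des, Cdh15 and Msc, markers of myoblasts, were all above the dim level in their mean over the 6 arrays; this level is a rough guide to weak signal set at 2.64, the 95th percentile of the means of 1105 olfactory receptor genes. All 4 endothelial markers (Pecam1, Cdh5, Kdr, Tek), Cdh1 and Krt18 of the 4 epithelial markers, and Ptprc, Adgre1, Itgam and Lyz2 of the 7 leukocyte markers did not reach it, while Epcam, Krt8, Cd68, Csf1r and Cd14 did. Of the 32 genes described here, 26 lay above the dim level and 6 did not (Oas2, Usp18, Mx1, Mx2, Bst2 and Psmb9). Probe sets differ in their response, so a level is not compared between genes.

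None of the 32 genes passed limma's threshold for Htt siRNA against scramble at an adjusted p of 0.05, where 0 of all 22180 genes (0%) passed. At an unadjusted p under 0.05 there were 3 higher (Irf9, Xaf1 and Psmb8) and 1 lower (Tlr3). That is 9.38% and 3.12% of the 32, beside 5.72% and 5.14% of all genes, or 1269 higher and 1140 lower. After centring each array on its median, 2 of the 32 were higher (6.25%, beside 4.11% of all genes, or 911). In that fit 1 was lower (3.12%, beside 6.61%, or 1465). With array weights 5 were higher (15.6%, beside 6.85%), and after repeated quantile normalization 4 (12.5%, beside 6.2%). With the mean of probe sets 4 were also higher (12.5%, beside 5.72%). In these settings 1 was lower (3.12%), beside 6.69%, 4.27% and 5.14% of all genes in that order. With a variance trend or a replicate block the counts stayed at 3 and 1. The groups did not overlap in 4 genes that were higher with Htt siRNA (Irf9, Xaf1, Psmb8 and Psmb9, 12.5%), beside 10.1% of all genes, and in 1 that was lower (Tlr3, 3.12%), beside 5.91%.

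The median log2 fold change, Htt siRNA minus scramble, was 0.09 over the 32 genes and 0.03 over all genes, and 22 of the 32 were positive (68.8%, beside 58.2% of all genes). Above the dim level 16 of 26 were positive (61.5%, beside 50.3% of all genes above it). The 6 genes not above it were all positive (100%, beside 68.8% of all genes not above it). Differences ran from -0.32 for Tlr3 to 0.83 for Irf9, and no gene reached a 2-fold difference. For 28 of the 32 (87.5%, beside 96.5% of all genes) the 95% confidence interval lay within a 2-fold difference in either direction. The 4 whose interval reached further were Ifit1, Oasl2, Irf9 and Xaf1, and those of Ifit1 and Oasl2 also included 0.

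**Figure D1:**
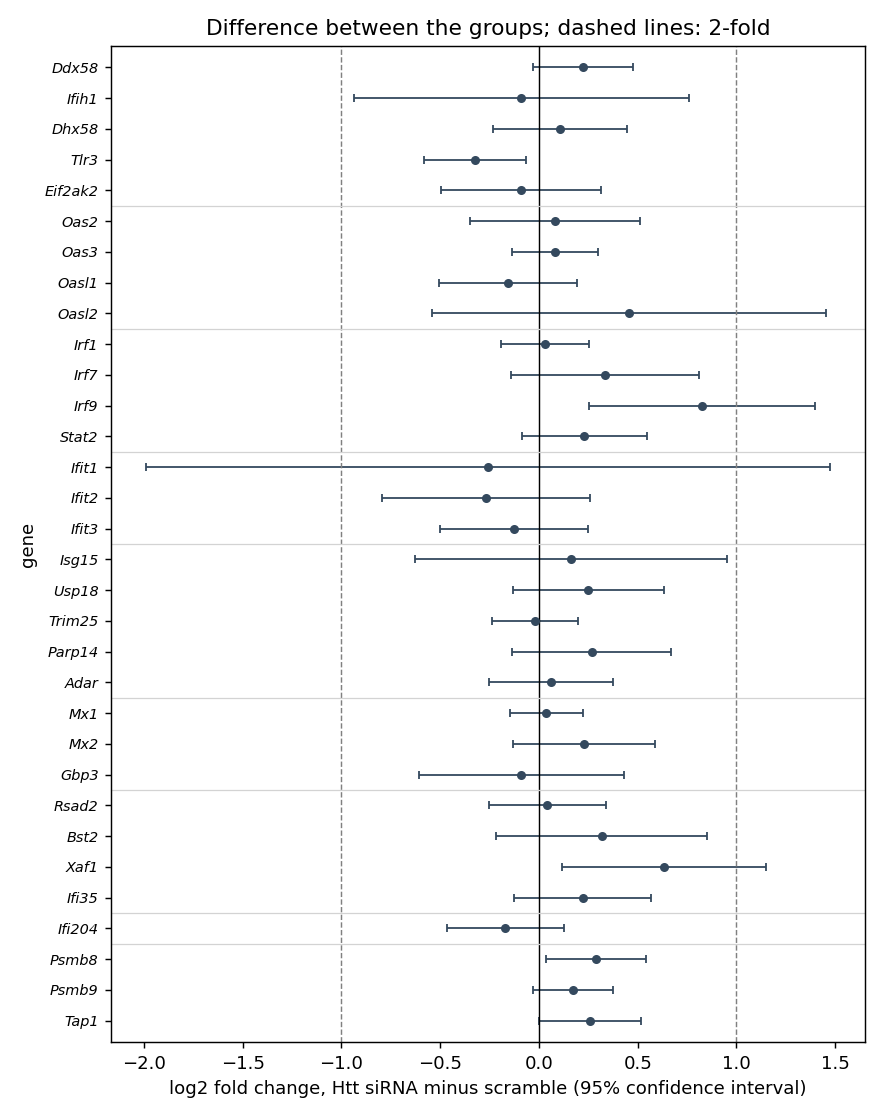
Log2 fold change (x axis, Htt siRNA minus scramble) of the 32 measured genes (y axis, ordered by role, grey lines between roles), with 95% confidence intervals from limma, 3 arrays per group. Every point lies between the dashed lines at a 2-fold difference, and the intervals of Ifit1, Oasl2, Irf9 and Xaf1 cross a dashed line.

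Among the sensors of double-stranded RNA, Tlr3, the endosomal receptor, was lower with Htt siRNA. The Htt siRNA arrays, in the order of replicates 1, 2 and 3, read 3.39, 3.47 and 3.33 on the log2 scale, and the scramble arrays in the same order 3.51, 3.80 and 3.85. Every Htt siRNA array lay below every scramble array. The log2 fold change was -0.32 ± 0.11 (SE; limma adjusted p = 0.398, unadjusted p = 0.0199). Ddx58, which encodes RIG-I, stood at 5.78, 5.50 and 5.77 with Htt siRNA and 5.42, 5.58 and 5.38 with scramble, a difference of 0.22 ± 0.11 that did not pass (limma adjusted p = 0.499). Htt siRNA replicates 1 and 3 were the highest, and replicate 2 lay below scramble replicate 2. Ifih1, the gene of MDA5, was read at 5.27, 5.23 and 4.96 with Htt siRNA and 4.79, 6.22 and 4.73 with scramble. A single control array was thus highest and the other 2 were lowest, and the fold change of -0.09 ± 0.36 became 0.40 without scramble replicate 2. Dhx58, the regulatory helicase LGP2, differed by 0.11 ± 0.15. Eif2ak2, the kinase PKR that halts translation when it binds double-stranded RNA, differed by -0.09 ± 0.17, with all 6 arrays between 6.19 and 6.84.

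The oligoadenylate synthetases make a small messenger once they bind double-stranded RNA. The family listed here also holds the OAS-like genes Oasl1 and Oasl2. Oasl2 had the widest spread of the 4 measured. It was read at 5.28, 4.08 and 4.99 with Htt siRNA and 3.96, 5.25 and 3.78 with scramble. Htt siRNA replicates 1 and 3 and scramble replicate 2 were high and the other 3 arrays low, so the difference of 0.46 ± 0.43 was within the spread of each group (limma adjusted p = 0.736). Leaving out scramble replicate 2 moved it to 0.92. Oasl1 was between 3.10 and 3.22 in 5 arrays and 3.66 in scramble replicate 2, and its sign turned from -0.16 to 0.02 without that array. Oas3 stayed between 2.73 and 2.98, and Oas2 between 2.07 and 2.71.

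Of the 4 transcription factors all had positive differences, and Irf9 had the largest of the 32 genes. IRF9 is the DNA-binding part of the complex that interferon activates. Its gene stood at 5.47, 4.51 and 5.42 with Htt siRNA and 4.43, 4.35 and 4.14 with scramble. Htt siRNA replicates 1 and 3 were far above every control, and replicate 2 lay just above the highest of them. The log2 fold change was 0.83 ± 0.25, or 1.77-fold, with an unadjusted p of 0.0104 and a limma adjusted p of 0.366. Over the 14 alternative settings the fold change lay between 0.66 and 1.14 and the adjusted p between 0.00778 and 0.704. Without Htt siRNA replicate 2 the difference of 1.14 passed the threshold (limma adjusted p = 0.00778), in a fit that called 540 genes. Irf7, the factor that amplifies interferon production, was at 3.94, 3.13 and 3.30 with Htt siRNA and 3.04, 3.32 and 3.01 with scramble. Htt siRNA replicate 1 alone was high, and the fold change of 0.33 ± 0.21 was 0.09 without it. Stat2, the partner of IRF9, was at 6.08 in the same array and between 5.46 and 5.67 in the other 5 (0.23 ± 0.14, and 0.09 without that array). Irf1, an early responder to both interferon types, differed by 0.03 ± 0.10, with all arrays between 5.14 and 5.42, and its sign turned under 3 of the alternatives.

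The IFIT proteins bind foreign RNA ends and block translation, and Ifit1 is among the most inducible interferon targets. All 3 genes of the family had negative differences. Ifit1 stood at 4.26, 3.28 and 4.29 with Htt siRNA and at 3.49, 6.14 and 2.99 with scramble. The highest and the lowest of the 6 arrays were both controls. With a within-group SD of 0.58 with Htt siRNA and 1.69 with scramble, the difference of -0.26 ± 0.75 had a 95% confidence interval from -1.99 to 1.48 (limma adjusted p = 0.923). It turned to 0.71 without scramble replicate 2 and to 0.07 without Htt siRNA replicate 2. Ifit2 took another order, at 3.32, 4.01 and 3.09 with Htt siRNA and 3.53, 3.86 and 3.83 with scramble, with Htt siRNA replicate 2 highest (-0.27 ± 0.23). Ifit3 lay between 2.38 and 2.91 in all arrays (-0.13 ± 0.16).

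**Figure D2:**
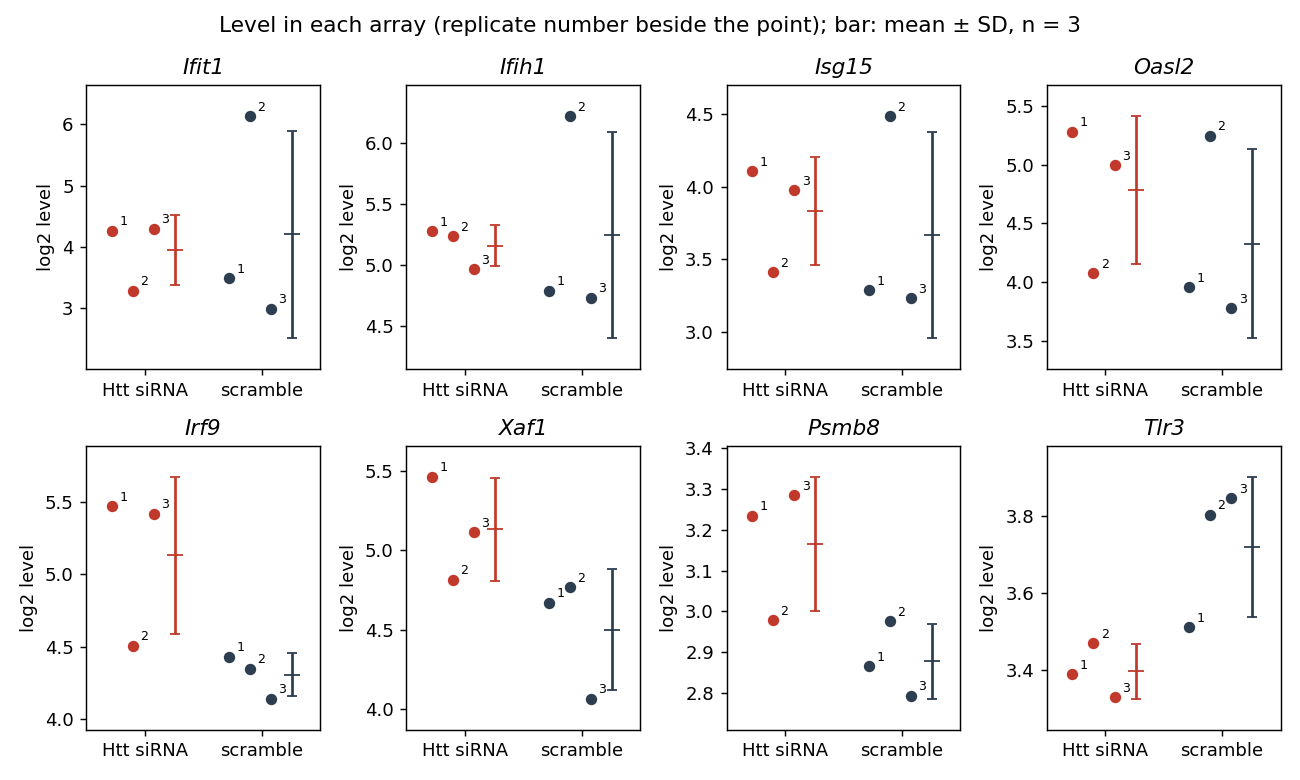
Log2 level of 8 genes in each array, with the replicate number beside each point, and mean ± SD (bars, n = 3) for Htt siRNA (red) and scramble (dark blue); each panel has its own y axis, which does not start at 0. Scramble replicate 2 is the highest point for Ifit1, Ifih1 and Isg15, while for Irf9, Xaf1 and Psmb8 every Htt siRNA array lies above every scramble array.

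ISG15 is a ubiquitin-like protein that interferon-induced enzymes attach to many other proteins, and USP18 removes it and damps the receptor. Isg15 was read at 4.11, 3.41 and 3.98 with Htt siRNA and 3.29, 4.48 and 3.23 with scramble. The order of the arrays was again scramble replicate 2, then Htt siRNA replicates 1 and 3, with the other 3 lower. Its difference of 0.16 ± 0.34 (limma adjusted p = 0.890) was 0.57 without scramble replicate 2 and turned negative without scramble replicate 1 or 3. Usp18 was at 3.09 in Htt siRNA replicate 1 and between 2.33 and 2.67 elsewhere (0.25 ± 0.16). Parp14, an ADP-ribosyltransferase linked to interferon responses, was likewise highest in that array (4.24, against 3.42 to 3.91 in the others). Trim25, the ligase that helps activate RIG-I, differed by -0.02 ± 0.09, and its sign turned under 4 alternatives. Adar, the editing enzyme that marks self double-stranded RNA, differed by 0.06 ± 0.14, with the scramble arrays inside the range of the Htt siRNA arrays, and its sign turned under 1 alternative.

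The antiviral effectors were mixed. Xaf1, an interferon-induced factor that favours apoptosis, stood at 5.47, 4.82 and 5.12 with Htt siRNA and 4.67, 4.77 and 4.06 with scramble. The groups did not overlap, and scramble replicate 3 was the lowest array. The log2 fold change was 0.63 ± 0.22, or 1.55-fold (limma adjusted p = 0.400, unadjusted p = 0.0219), and it lay between 0.42 and 0.79 over the alternatives. Bst2, which encodes tetherin, was at 2.99, 2.17 and 2.82 with Htt siRNA and 2.12, 2.67 and 2.25 with scramble, so the groups overlapped (0.32 ± 0.23, not above the dim level). Ifi35 was highest in Htt siRNA replicate 3 (5.61, against 4.99 to 5.22 elsewhere). Rsad2, which encodes viperin, differed by 0.04 ± 0.13. Of the GTPases, Mx1 stayed between 2.00 and 2.14 in all 6 arrays and Mx2 between 1.84 and 2.48, both not above the dim level. RefSeq lists both as transcribed pseudogenes in its reference strain. Gbp3, a guanylate-binding protein, was at 2.92, 2.63 and 2.32 with Htt siRNA and 2.73, 3.11 and 2.30 with scramble, highest in scramble replicate 2 (-0.09 ± 0.22). Its sign turned without that array. Ifi204, a nucleic acid sensor of the IFI200 family whose members resemble each other closely, was at 7.57, 7.17 and 7.16 with Htt siRNA and 7.50, 7.53 and 7.38 with scramble. The highest and the 2 lowest arrays were all Htt siRNA (-0.17 ± 0.13).

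Antigen processing genes showed small differences with little spread. PSMB8 and PSMB9 replace constitutive catalytic subunits in the immunoproteasome, and TAP1 carries its peptides into the endoplasmic reticulum. Psmb8 was at 3.23, 2.98 and 3.28 with Htt siRNA and 2.87, 2.98 and 2.79 with scramble. The lowest Htt siRNA array and the highest control were nearly equal (2.978 against 2.976). The log2 fold change was 0.29 ± 0.11, or 1.22-fold (limma adjusted p = 0.421, unadjusted p = 0.0304). Psmb9, not above the dim level, was at 2.20, 2.39 and 2.34 against 2.15, 2.17 and 2.09 (0.17 ± 0.09). Tap1, whose gene is transcribed away from Psmb9 from a shared promoter region, was at 3.53, 3.28 and 3.57 against 3.32, 3.22 and 3.08. Here Htt siRNA replicate 2 lay below scramble replicate 1, and the difference was 0.26 ± 0.11 (limma adjusted p = 0.460, unadjusted p = 0.0503). The constitutive counterparts Psmb5, Psmb6 and Psmb7 had differences of -0.06 ± 0.08, -0.10 ± 0.09 and 0.03 ± 0.10.

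Across roles, the arrays of a group differed from one another. The mean deviation of the 32 genes from their 6-array means was 0.21, -0.12 and 0.09 for Htt siRNA and -0.18, 0.20 and -0.19 for scramble, with an SD within groups of 0.19. Htt siRNA replicate 1 was the highest array for 12 of the 32 genes (37.5%, beside 19.2% of all genes), scramble replicate 2 for 8 (25%, beside 11.5%) and scramble replicate 1 for 0. Scramble replicate 3 was the lowest array for 12 (37.5%, beside 13.2%). Ifit1 did not carry this alone: without it the means were 0.21, -0.10, 0.08, -0.16, 0.14 and -0.16.

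**Figure D3:**
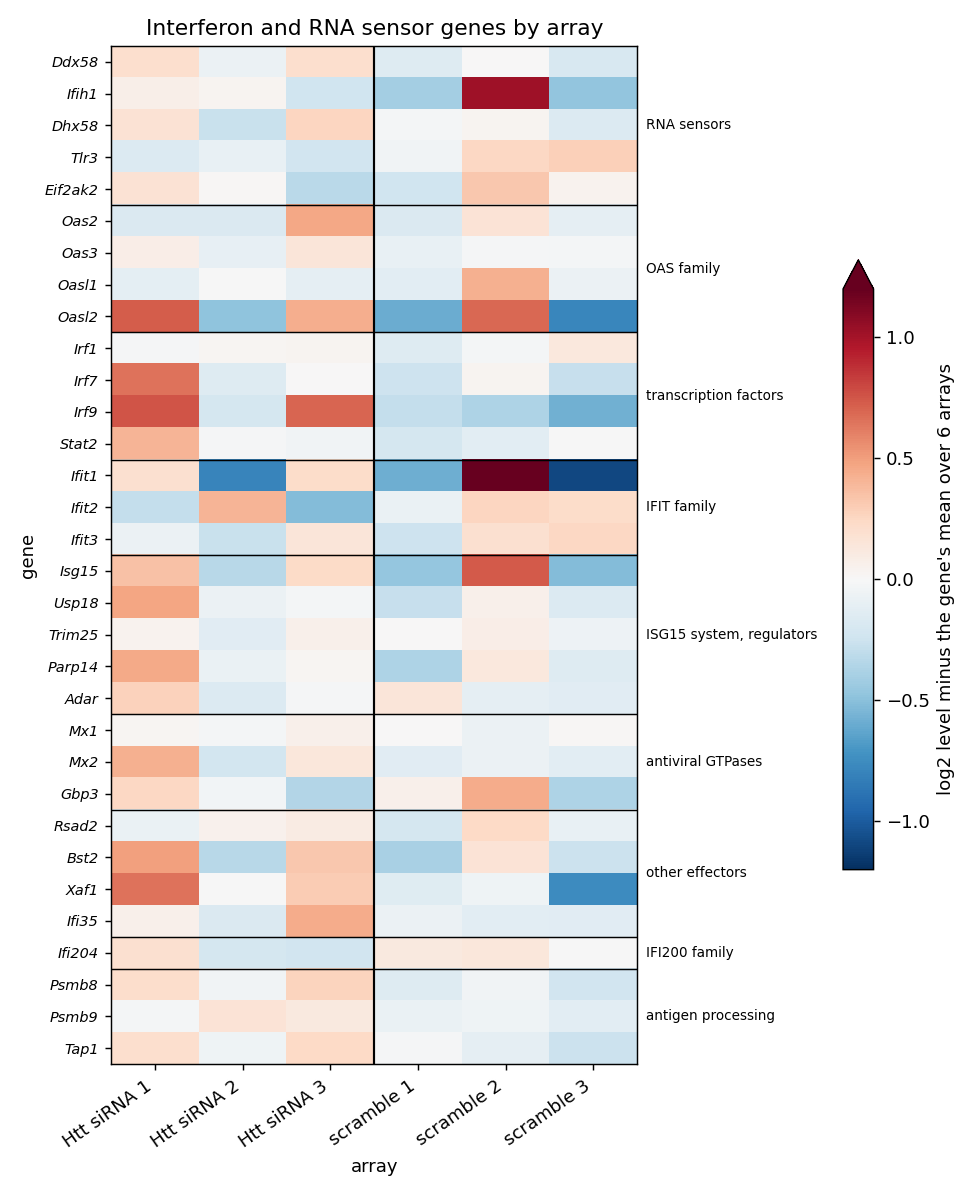
Deviation of each gene's log2 level from its mean over the 6 arrays (colour, red above and blue below), for the 32 measured genes (rows, grouped by role) in the 3 Htt siRNA and 3 scramble arrays (columns). Scramble replicate 2 is red for Ifih1, Oasl2, Ifit1 and Isg15, while Htt siRNA replicate 1 is red for Oasl2, Irf7, Irf9 and Xaf1; the Ifit1 value in scramble replicate 2 lies beyond the colour scale.

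A gap is the distance from a gene's highest array to the next. Each gene has a single highest array, so the gaps of scramble replicate 2 and Htt siRNA replicate 1 cannot share a gene. Oasl2, Isg15, Parp14, Usp18 and Gbp3 were high in both arrays. In scramble replicate 2, Ifit1 lay 1.85 log2 units (3.59-fold) above the next array, the largest such gap for any of the 22180 genes in any array. Ifih1 in the same array lay 0.94 above the next (1.92-fold), Oasl1 0.44 and Isg15 0.38. In Htt siRNA replicate 1 the widest gaps among the 32 genes were 0.62 for Irf7, 0.41 for Usp18 and 0.41 for Stat2. Irf9 in scramble replicate 2 (4.35) lay between the other controls. These gaps are descriptions of single arrays and have no replicate.

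Leaving out single arrays moved the counts. By the mean deviation of the 32 genes, Htt siRNA replicate 2 (-0.12) was the lowest of its group and scramble replicate 2 (0.20) the highest control. Removing either array therefore raises the mean difference of these genes by construction. Without Htt siRNA replicate 2, 10 of the 32 genes were higher at an unadjusted p under 0.05 (31.2%, beside 7.8% of all genes) and 2 were lower (6.25%, beside 7.75%). Without scramble replicate 2, 6 were higher (18.8%, beside 3.23%) and 0 lower. Without Htt siRNA replicate 3, 1 was higher (3.12%, beside 4.26% of all genes), and without scramble replicate 3 also 1 (beside 4.82%), with 0 lower in both. Without Htt siRNA replicate 1, 2 were higher (6.25%, beside 4.59%) and 2 lower (6.25%, beside 3.1%). Without scramble replicate 1 the counts were 3 and 1, as with all arrays.

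A list of 15 genes of the unfolded protein and integrated stress responses deviated by 0.72, -1.14 and 0.86 for Htt siRNA and 0.99, -0.96 and -0.48 for scramble. Its 3 genes with the smallest p were Sdf2l1 (1.02 ± 0.87), Hsp90b1 (0.17 ± 0.16) and Hspa5 (0.45 ± 0.45), and 0 of the 15 had an unadjusted p under 0.05. The stress genes and the 32 genes deviated to the same side in 4 of the 6 arrays, all 3 of Htt siRNA and scramble replicate 3, and to opposite sides in scramble replicates 1 and 2. With the stress level of each array as a covariate, 4 of the 32 genes were higher and 1 lower at an unadjusted p under 0.05, beside 6.75% and 6.61% of all genes. In that fit 0 of the 32 passed the adjusted threshold, and 64 of all genes did. The 7 leukocyte markers had a mean log2 level between 2.80 and 2.88 in the 6 arrays, and in scramble replicate 2 it was 2.88. Of these markers 1 was higher and 2 lower with Htt siRNA at an unadjusted p under 0.05, beside 5.72% and 5.14% of all genes. Of the markers 0 passed the adjusted threshold. Their log2 fold changes were 0.51 ± 0.14 for Lyz2, whose mean was 2.78 with Htt siRNA and 2.27 with scramble, -0.39 ± 0.14 for Cd68 and -0.30 ± 0.12 for Cd14. The 5 myoblast markers had their lowest mean level, 6.98, in scramble replicate 2, and the highest, 7.51, in Htt siRNA replicate 3. Htt was at 5.60 in scramble replicate 2, beside 5.59 and 5.72 in the other controls. The fit with the stress covariate tested only the group difference. The part of the stress level in the interferon genes was not tested, nor was the part of the markers.

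**Figure D4:**
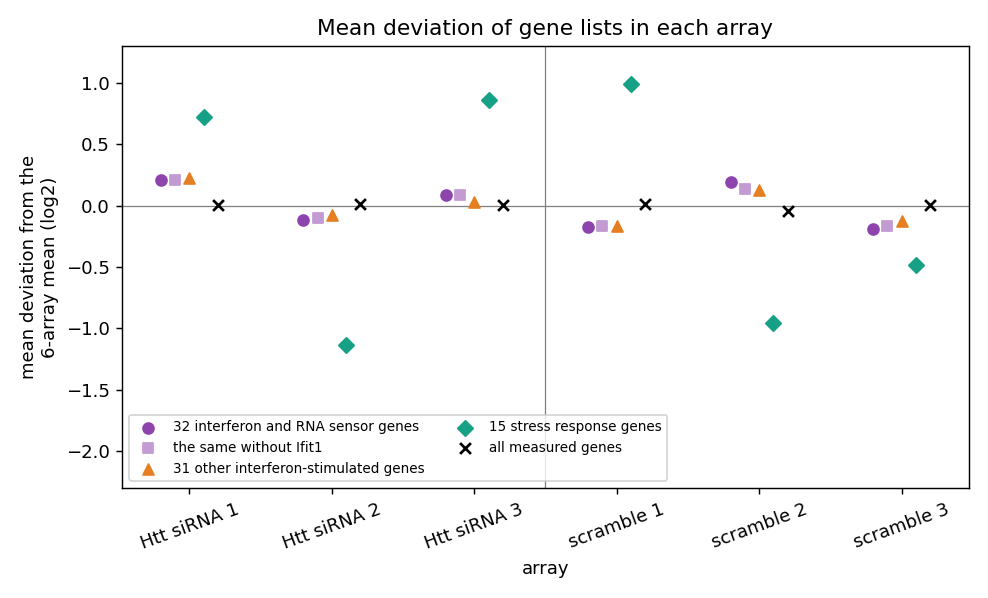
Mean deviation from the 6-array mean (y axis, log2) of 5 gene sets in each array (x axis). The interferon and RNA sensor genes and the other interferon-stimulated genes are highest in Htt siRNA replicate 1 and scramble replicate 2, the stress genes in scramble replicate 1 and Htt siRNA replicates 1 and 3, and all genes together stay near 0.

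The rest of the pathway was read from further lists, and in each of them 0 genes passed limma's adjusted threshold. The counts in these lists stand beside 5.72% of all genes higher and 5.14% lower at an unadjusted p under 0.05. Of 9 measured interferon genes, 4 lay above the dim level and 5 did not, and 0 had an unadjusted p under 0.05. Ifnb1, the interferon that fibroblast-like cells make first, was at 1.90, 1.91 and 1.91 with Htt siRNA and 1.97, 1.74 and 1.80 with scramble, not above the dim level in either group, and Ifng differed by 0.04 ± 0.10. Ifne, Ifnk and Ifna1, the 3 with the smallest p, differed by 0.14 ± 0.10, 0.12 ± 0.11 and 0.15 ± 0.15. The receptor chains Ifnar1 and Ifnar2 differed by 0.03 ± 0.10 and 0.14 ± 0.16. Of 10 receptor and JAK-STAT genes, 2 were higher at the unadjusted p and 0 lower: Stat3 (0.47 ± 0.12) and the interferon gamma receptor chain Ifngr2 (0.23 ± 0.09). The other gamma receptor chain, Ifngr1, differed by 0.18 ± 0.13.

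Of 16 adaptors and kinases of nucleic acid sensing, 1 was lower at the unadjusted p, the DNA sensor Cgas (-0.53 ± 0.19, limma adjusted p = 0.407). The adaptor Mavs differed by -0.16 ± 0.10, the kinase Tbk1 by -0.23 ± 0.15 and the factor Irf3 by 0.17 ± 0.12. Of 13 feedback and nucleic acid clearance genes, Nlrx1 was higher (0.34 ± 0.12) and Rnaseh2a, a subunit of the enzyme that removes RNA from DNA, was lower (-0.32 ± 0.12), while the phosphatase gene Ptpn11 differed by -0.15 ± 0.08. Of 11 genes of the RNA interference machinery, 0 were higher and 2 lower, namely Xpo5, the exporter of microRNA precursors (-0.32 ± 0.11), and the Argonaute gene Ago3 (-0.33 ± 0.12). Ago2, the slicing Argonaute that siRNA works through, differed by -0.14 ± 0.13, and Tarbp2, a partner of Dicer, by -0.20 ± 0.10.

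Among 31 other interferon-stimulated genes, 4 were higher at the unadjusted p and 1 lower, and the median was 0.14, beside 0.03 over all genes. The higher ones were Nmi (0.26 ± 0.08), Ifi27 (0.57 ± 0.20), Parp12 (0.28 ± 0.11) and Parp9 (0.23 ± 0.09). Over the whole list of 31, the groups did not overlap in 4 higher genes, the same 4, and in 1 lower gene. Over all genes the shares were 10.1% and 5.91%. The 4 were picked by their p in these arrays, so their lack of overlap adds no support. Mlkl, the effector of necroptosis, was lower (-0.60 ± 0.15; limma adjusted p = 0.317). The mean deviation of this list was 0.22, -0.08 and 0.03 for Htt siRNA and -0.17, 0.12 and -0.12 for scramble. Htt siRNA replicate 1 and scramble replicate 2 were thus the highest arrays here too. Of 11 further antigen processing genes, H2-K1, a classical MHC class I gene, was higher (0.25 ± 0.09) and 0 were lower. Psme2, of the proteasome activator, differed by 0.38 ± 0.17 and Nlrc5, the activator of MHC class I genes, by 0.22 ± 0.13. Of 14 NF-kB genes and targets, 4 were lower and 0 higher, all of them chemokines. Ccl2 differed by -1.32 ± 0.25 (limma adjusted p = 0.203), Cxcl1 by -0.59 ± 0.12 and Cxcl5 by -0.76 ± 0.26, and the fourth was Ccl7.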

How the data were processed

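The values deposited by the authors are on the log2 scale, in a single table that covers 41345 probe sets and 6 arrays. The submitters' processing notes name RMA and the affy package, without versions; RMA corrects background, quantile-normalizes the arrays and summarises probes, which compresses weak signals and hides changes common to all genes. The values held no detection calls. The number of arrays limits the precision.

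Gene names came from the platform annotation. Of the probe sets, 23521 had 1 symbol, 1814 several and 16010 none here, and the brightest by its mean over the 6 arrays stood for each of 22180 genes. Of the probe sets with 1 symbol, 23328 matched the RefSeq table of GRCm38.p6 by Entrez identifier. No build is given for the array in the sources used here, and coordinates are those of the RefSeq promoter table.

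Groups were compared on the deposited log2 values with limma 3.58.1 in R 4.3.3 (lmFit, eBayes, group as the only term, two-sided), with Benjamini-Hochberg adjustment over all 22180 genes; p-values were called at 0.05. Simulated arrays tested the fit: 77% of genes shifted by 1 log2 unit and 99% of those shifted by 2 were recovered, with 12 false calls in the same run. The simulated noise was independent between genes, with no shift shared by many genes of an array. These shares may therefore not hold for the real arrays. The genes and lists were chosen with earlier results of these data known. All 36 listed genes and Htt were named; from each further list up to 3 genes with the smallest p, and Ifnb1, Ifng, Ifnar1, Ifnar2, Mavs and Irf3, with other names chosen after their values were seen (Ago2, Parp12, Parp9, Ccl7, and Lyz2, Cd68 and Cd14 among the markers). Some other genes of the naming rule are not reported here. Alternatives covered array centring, repeated quantile normalization, array weights, a variance trend, the mean over probe sets, a filter on dim genes, a stress covariate, a replicate block and leaving out each array. Plots used Python 3.11.15 and matplotlib 3.10.9.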

Additional observations from a re-analysis of the deposited data

How the results depend on the processing

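With all 6 arrays kept, 0 of the genes described here passed the adjusted threshold under the 8 other settings (32 tested in each, but 26 where genes not above the dim level were left out), while over all genes the count moved from 0 to 3 after centring, 3 after repeating the quantile normalization, 1 with array weights, 2 with a variance trend, 3 among genes above the dim level and 64 with the stress covariate. The Htt log2 fold change passed at -1.13 (centred), -1.04 (quantile repeated), -1.11 (array weights), -1.10 (genes above the dim level) and -1.11 (stress covariate), but not with a variance trend (limma adjusted p = 0.0615) or the mean of probe sets (0.0521). With the replicate number as a block 98 genes passed, Htt among them at -1.10, and 0 of the 32. The labels do not say that same-numbered arrays were paired, so the main fit took no pairs. The deviations of same-numbered arrays from their group means had correlations of 0.35, 0.36 and 0.0064 for replicates 1, 2 and 3. Differently numbered arrays were not compared, so these values do not decide whether the numbers mark pairs. Leaving out 1 array at a time gave 0 to 540 of the 22180 genes and 0 to 1 of the 32 at the adjusted threshold. The 540 and the 1 (Irf9) came from the same fit, without Htt siRNA replicate 2. At an unadjusted p under 0.05 there were 1 to 12 of the 32. The 12 came from that fit too, where 7.8% of all genes were higher and 7.75% lower. The 1 came without replicate 3 of either group. There 4.26% of all genes were higher and 3.16% lower (Htt siRNA), or 4.82% and 3.53% (scramble). Htt lay between -1.16 and -1.06. Its limma adjusted p was 0.00778 without Htt siRNA replicate 2 and from 0.0944 to 0.348 without any other array. The highest counts came without Htt siRNA replicate 2; the cause was not tested. Over the 14 alternatives (13 for the 6 genes not above the dim level), 21 of the 32 genes kept the sign of their difference and 11 did not in at least 1. With 3 arrays a group, differences of the simulated size or smaller could be missed. In the main fit 0 genes passed, though 107 of the 22180 differed by at least 2-fold. Weak signals near the dim level carry little information on change.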

Other observations

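In scramble replicate 2, genes outside the 32 also stood far above the next array; they were picked with their values in view, and no test was made. The interferon-inducible ubiquitin ligase gene Herc6 was at 4.89 in that array and between 3.62 and 4.01 in the other 5. The chemokine gene Ccl5 was at 6.10 there, beside 5.44 in Htt siRNA replicate 1, the next highest, and 3.91 in scramble replicate 1, the lowest. The guanylate-binding protein gene Gbp7 was at 4.64, with a gap of 0.66 to the next array. Genes of other kinds had gaps of similar size in the same array, among them Txnip, a regulator of glucose uptake and redox state (1.25), the transporter gene Slco4a1 (0.99) and the replication gene Mcm10 (0.64).

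In Htt siRNA replicate 1 the immunity-related GTPase gene Igtp was at 3.44, against 2.11 to 2.64 in the other arrays, a gap of 0.81. The widest gap there belonged to the carbonic anhydrase gene Car6 (1.17). Irgm2, of the same GTPase family, was at 3.60, 2.25 and 3.02 with Htt siRNA and 2.74, 2.72 and 2.51 with scramble, so Htt siRNA held both the highest and the lowest array.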
